A study of Mus musculus with 4 samples.

Results

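The genes described here are the parts of the gp130 cytokine pathway that carry a signal from outside the cell to the nucleus: the receptors *Il6st*, *Lifr*, *Osmr* and *Cntfr*, the kinases *Jak1*, *Jak2* and *Tyk2*, the transcription factor *Stat3*, and the ligands *Lif* and *Cntf*. These 10 genes were named by symbol, not by their values, and all 10 are among the 24322 symbols of each file. RNA-seq was performed on mTFP-positive cells that were sorted by FACS from the retinas of 4 tamoxifen-treated mice, labelled 129S6, with tamoxifen given at P4 and harvest at P14. The 2 control mice, numbers 7984 and 3911, were Raxflox/WT, and the 2 *Rax* iCKO mice, numbers 7983 and 3914, were Raxflox/flox. Every mouse also carried Rlbp1-CreERT2 and R26-CAG-LoxP-mTFP1, so the controls had also received tamoxifen and expressed Cre, and they had 1 floxed allele of *Rax*. Cre was driven by a promoter fragment of *Rlbp1*, a gene of Müller glia and of the pigment epithelium, and the study describes recombination in both.

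gp130, the product of *Il6st*, is the signaling subunit that all cytokines of the interleukin-6 family share. A ligand such as LIF or CNTF joins gp130 to the partner chain LIFR, oncostatin M can use OSMR instead, and CNTF also needs CNTFR, which has no signaling domain of its own. The kinases bound to these chains phosphorylate one another and the receptor, and STAT3 docks there, is phosphorylated and enters the nucleus, where it switches on genes that include *Socs3*, the brake of the same receptor. In the retina this pathway is known for its response to injury: Müller glia make LIF when photoreceptors are damaged, and both LIF and CNTF support the survival of photoreceptors.

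The promoters of the genes were read from RefSeq (GRCm38.p6) as windows from 250 bases before to 50 bases after the start of transcription, and 10 of 10 genes had at least 1 window. Windows were searched on both strands for TAATT, the sequence that the study predicts Rax to bind, and for TTCNNNGAA, the palindrome that STAT dimers bind. TAATT was held by 27.0% and TTCNNNGAA by 8.30% of all 32851 windows of this length. None of the 10 genes had TTCNNNGAA in a window, whereas *Socs3* had 1 match and no TAATT in the same window. The study's reporter assay used a much longer stretch upstream of *Socs3*, in which it predicts TAATT sites. With those sites mutated, Rax did not activate the reporter in the study. The window here covers only a small part of that stretch. TAATT was found in the windows of *Stat3* and *Cntf*, in 1 of the 2 windows of *Lifr* and in 1 of the 6 windows of *Cntfr*. The matches below are shown because *Stat3* and *Cntf* were the 2 genes whose values did not overlap between the genotypes, and *Socs3* is the brake on the pathway, and the lines of *Lifr* and *Cntfr* complete the matches in the genes described. Capitals mark the match, and a match is a string of letters, not a shown binding site. For *Stat3* and for *Cntfr* the same letters also read as TAATT on the other strand, 1 base further on. The first line lies at chr11:100939527-100939551 on the minus strand, across the start of *Stat3*. The *Cntf* lines lie at chr19:12765807-12765831 and chr19:12765765-12765789 on the minus strand, their matches are on the opposite strand, and each is named by its distance from the start of transcription, both upstream. The *Lifr* line lies at chr15:7140296-7140320 on the plus strand, the *Cntfr* line at chr4:41689156-41689180 on the minus strand, and the *Socs3* line at chr11:117969502-117969530 on the minus strand.
Stat3: ggccattcctTAATTatgcatggag
Cntf match at -189: ggataaaacaAATTAaaatacagtg
Cntf match at -147: agtaaaatcaAATTAtatgtgtaaa
Lifr: catgatagatTAATTtctgtgcata
Cntfr: ggagcagctgTAATTacagggcatt
Socs3: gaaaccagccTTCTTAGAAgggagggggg

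The whole 250 bases before the start are given for the receptor subunit that all the ligands share and for *Cntf*, which had the largest log2 fold change of the 9 genes of the set that were tested, since the windows differ in base composition. G and C made up 68.3% of the 300-base window of *Il6st* and 36.3% of that of *Cntf*. The *Il6st* sequence lies at chr13:112463820-112464069 on the plus strand and the *Cntf* sequence at chr19:12765633-12765882 on the minus strand, with the matches, AATTA on this strand, in capitals.
Il6st: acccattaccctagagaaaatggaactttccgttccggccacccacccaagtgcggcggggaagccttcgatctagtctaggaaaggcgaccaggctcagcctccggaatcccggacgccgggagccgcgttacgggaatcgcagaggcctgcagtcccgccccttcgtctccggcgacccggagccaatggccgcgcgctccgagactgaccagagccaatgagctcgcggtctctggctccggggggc
Cntf: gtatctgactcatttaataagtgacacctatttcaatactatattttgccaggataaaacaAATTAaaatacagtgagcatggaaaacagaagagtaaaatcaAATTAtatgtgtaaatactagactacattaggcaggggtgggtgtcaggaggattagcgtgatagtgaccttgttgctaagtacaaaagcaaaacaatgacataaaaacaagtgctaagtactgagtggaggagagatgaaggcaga

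Some facts of the 4 libraries bear on every value that follows. Within each genotype the 2 values are given in 1 order, mouse 7984 before 3911 in control and mouse 7983 before 3914 in *Rax* iCKO. The authors deposited FPKM, in which the fragments of a gene are scaled by its exon length and by the depth of the library, so levels can be compared between genes. The depth estimated from the steps of the lowest values was between 9260000 and 12700000 mapped reads, with control mouse 7984 the deepest. *Rax*, the targeted gene, was at 189.1 and 181.4 FPKM in control against 111.4 and 98.4 FPKM in *Rax* iCKO. It was lower in both, as the labels require, but much of its RNA remained, with a ratio of mean FPKM of 0.566. Libraries resembled each other by mouse number more than by genotype: the correlation of log2(FPKM + 1) across genes, a description since genes are no replicates, was 0.952 within control and 0.955 within *Rax* iCKO, but 0.970 both between mice 7983 and 7984 and between mice 3911 and 3914. All 15 Müller glia markers were present, and their summed FPKM was 19229 and 14890 in control against 13059 and 13044 in *Rax* iCKO. However, RNA of other retinal cells was present as well. The 12 rod markers summed to 2101 and 2230 FPKM in control against 1557 and 1428 FPKM in *Rax* iCKO, without overlap. The 9 bipolar cell markers summed to 3886 and 9084 FPKM in control against 5278 and 7642 FPKM in *Rax* iCKO. Most of this sum was *Pcp2*, which overlapped between the groups, but 5 of the 9 were higher in both *Rax* iCKO libraries (15.4% of all tested genes) and 0 were lower (14.1%), with a median log2 fold change of 0.31. Microglia markers were lowest in *Rax* iCKO mouse 3914, where the 10 genes summed to 13.6 FPKM against 51.6 to 87.3 in the other libraries. Markers of the pigment epithelium, where the Cre transgene is also active, summed to 3.57 to 9.73 FPKM over 8 genes, and those of cones to 98.0 to 117.5 (8 genes), of amacrine and horizontal cells to 56.6 to 84.9 (10 genes) and of ganglion cells to 6.38 to 15.4 (8 genes, with *Pou4f1* at 0). The 5 astrocyte markers summed to 57.1 and 48.5 FPKM in control against 33.1 and 33.1 FPKM in *Rax* iCKO, with a median log2 fold change of -0.47 over 4 tested. Most of this sum was *Aldh1l1*, at 44.2 and 30.5 FPKM in control against 22.4 and 20.9 FPKM in *Rax* iCKO. *Pax2* was between 0 and 0.0381 FPKM. *Gfap* and *S100b* overlapped between the groups, and the study uses S100β as a marker of Müller glia. Y-linked RNA was found in 1 of the 2 *Rax* iCKO libraries and in 0 of the 2 controls, whereas *Xist*, which silences an X chromosome, had 24.5 and 21.2 FPKM in control against 0.0119 and 0.00605 FPKM in *Rax* iCKO. *Rax* iCKO mouse 3914 thus had Y-linked genes at 0 and almost no *Xist*, and *Xist* and genotype cannot be told apart in these mice. The part of sex-linked differences in the values that follow was not tested. In such bulk samples fewer cells of a type and less RNA per cell cannot be told apart.

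In their levels the 10 genes formed 3 tiers. *Jak1*, the kinase that gp130 signaling depends on most, and *Stat3* were the most abundant, with means over the 4 libraries of 33.7 and 30.3 FPKM. *Il6st* followed at 19.4, *Cntf* at 13.6 and *Cntfr* at 12.6 FPKM. *Jak2*, *Osmr*, *Tyk2* and *Lifr* were at 6.86, 5.38, 5.15 and 4.04 FPKM. *Lif* was far below at 0.431 FPKM, yet above 0 in all libraries. Neighbours in this order had overlapping ranges over the 4 libraries, except that every *Cntfr* value was above every *Jak2* value and every *Lifr* value above every *Lif* value. *Jak1* lay above *Stat3*, and *Stat3* above *Il6st*, within each of the 4 libraries. *Il6st* and *Cntf* did not keep an order, since *Il6st* was the higher of them in 2 libraries.

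**Figure D1:**
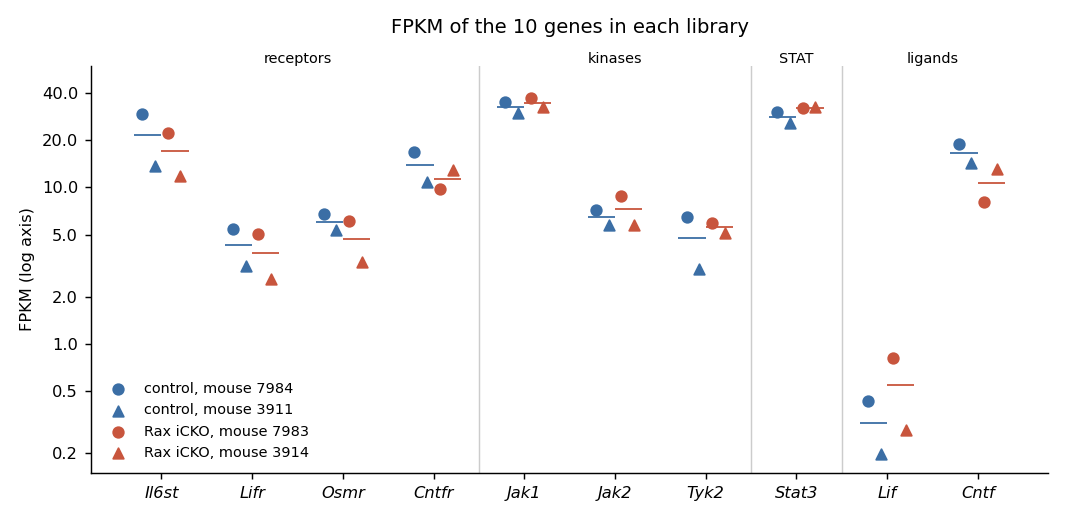
FPKM (log axis) of the 10 genes in each library, with controls in blue, Rax iCKO in red, circles for mice 7983 and 7984, triangles for mice 3911 and 3914, and a line at each group mean. Circles lie above triangles of the same colour for Il6st, Lifr, Osmr, Jak1, Jak2, Tyk2 and Lif, and the groups are apart only for Stat3 and Cntf.

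To examine whether deletion of *Rax* was accompanied by a change in these genes, control and *Rax* iCKO were compared with limma, which fits a linear model to log2(FPKM + 1) of each gene and borrows the variance from genes of similar level. Of the 10 genes, 9 had the mean FPKM of at least 1 that the test required, all except *Lif*. None of the 9 had an adjusted p under 0.05 and none an unadjusted p under 0.05, as against 354 of all 12363 genes tested at the latter threshold. The background of calls was itself low, since 3 genes, or 0.0243% of those tested, had an adjusted p under 0.05. The largest difference was that of *Cntf*, with a ratio of mean FPKM of 0.639, and the highest ratio was 1.17 for *Tyk2*. No ratio of the 9 was beyond 2-fold in either direction, as 1.86% of all tested genes were. The median log2 fold change of the 9 was -0.15, and that of all tested genes was -0.0044. Both *Rax* iCKO libraries were above both controls for 1 gene, *Stat3*, and below for 1 gene, *Cntf*. Over all tested genes this held for 15.4% in the upward and 14.1% in the downward direction, so that 1 of 9 each way is close to the background. The smallest p that an exact two-sided permutation test allows with 2 mice against 2 is 0.333, and *Stat3* and *Cntf* reached it.

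**Figure D2:**
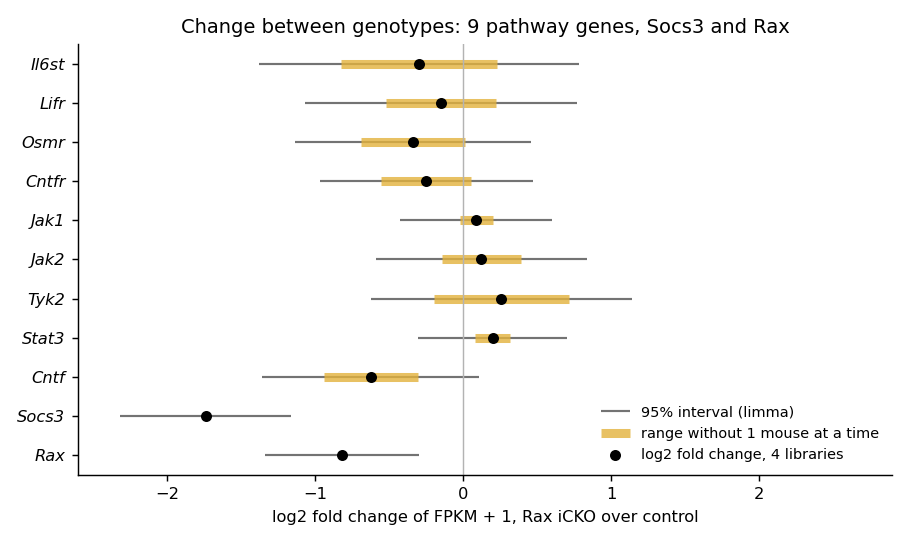
Log2 fold change of FPKM + 1, Rax iCKO over control, for the 9 genes tested, Socs3 and Rax (black points), with the 95% interval of limma (grey lines) and, for the 9 genes, the range obtained without 1 mouse at a time (yellow bars). Every interval of the 9 genes includes 0, and the yellow bar stays on one side of 0 for Stat3 and Cntf only. It must do so for genes whose groups do not overlap, as theirs do not, so the bar is no separate evidence.

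*Il6st* (chromosome 13, 112464070 to 112510086, plus strand) encodes gp130. Its FPKM was 29.6 and 13.8 in control against 22.4 and 11.8 in *Rax* iCKO. The values were high in the mice numbered 7983 and 7984 and low in the others, whatever the genotype, and the groups overlapped. Control averaged 21.7 ± 11.2 (SD, n = 2) and *Rax* iCKO 17.1 ± 7.52 FPKM (SD, n = 2). The log2 fold change was -0.30 (standard error 0.44, adjusted p = 0.9999 in limma), and its 95% interval ran from -1.38 to 0.78. It was lower in *Rax* iCKO within both runs of mouse numbers, and on the log2(FPKM + 1) scale mouse 7983 minus mouse 7984 was -0.39 and mouse 3914 minus mouse 3911 was -0.21. Its sign turned without control mouse 7984 (0.23) and without *Rax* iCKO mouse 3914 (0.14). With 1 mouse left out, the runs of mouse numbers are no longer balanced between the genotypes. Such values therefore also hold part of the difference between the runs.

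*Lifr* and *Osmr*, the chains that pair with gp130, are neighbours on chromosome 15, where *Osmr* spans 6813577 to 6874969 on the minus strand and *Lifr* 7090614 to 7197489 on the plus strand. In RefSeq 216 kb and 0 protein-coding genes lie between them. *Lifr* was at 5.43 and 3.14 FPKM in control against 5.02 and 2.59 FPKM in *Rax* iCKO. *Osmr* was at 6.74 and 5.37 FPKM in control against 6.08 and 3.36 FPKM in *Rax* iCKO. Both genes were lowest in *Rax* iCKO mouse 3914 and highest in control mouse 7984, and the groups overlapped. The log2 fold change was -0.15 for *Lifr* (standard error 0.38) and -0.34 for *Osmr* (standard error 0.33), both with an adjusted p in limma of 0.9999. For *Lifr* it was 0.17 without control mouse 7984 and 0.22 without *Rax* iCKO mouse 3914, and for *Osmr* it was 0.012 without *Rax* iCKO mouse 3914. On the log2(FPKM + 1) scale mouse 7983 minus mouse 7984 was -0.095 for *Lifr* and -0.13 for *Osmr*. Mouse 3914 minus mouse 3911 was -0.20 for *Lifr* and -0.55 for *Osmr*. After quantile normalization *Osmr* also ceased to overlap, with both *Rax* iCKO libraries the lower, although it was not called.

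The ratio of *Lifr* to *Il6st* within a library, which does not depend on depth, varied less than either gene. It was 0.183 and 0.228 in control against 0.224 and 0.220 in *Rax* iCKO. The ratio of *Osmr* to *Il6st* was 0.227 and 0.390 in control against 0.271 and 0.285 in *Rax* iCKO. In all 4 libraries gp130 RNA exceeded that of both partner chains, and neither ratio separated the genotypes.

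*Cntfr* (chromosome 4, 41657498 to 41697089, minus strand) encodes the chain that binds CNTF. It was at 16.9 and 10.8 FPKM in control against 9.78 and 12.9 FPKM in *Rax* iCKO. Unlike the other receptors, it was not higher in both mice numbered 7983 and 7984. On the log2(FPKM + 1) scale mouse 7983 minus mouse 7984 was -0.73 and mouse 3914 minus mouse 3911 was 0.24, and the log2 fold change over the 4 libraries was -0.25 (standard error 0.30, adjusted p = 0.9999 in limma). Without control mouse 7984 it was 0.055. Whether the 2 runs of mouse numbers differ in the effect of genotype on *Cntfr* was not tested.

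Among the kinases, *Jak1* (chromosome 4, 101152367 to 101265282, minus strand) was nearly level. It was at 35.3 and 30.1 FPKM in control against 37.0 and 32.6 FPKM in *Rax* iCKO. The groups overlapped, and the log2 fold change of 0.09 (standard error 0.21) had a 95% interval from -0.42 to 0.60 in limma. *Jak1* exceeded *Jak2* by 4.23 to 5.68 times and *Tyk2* by 5.43 to 10.1 times within a library. *Jak2* (chromosome 19, 29251828 to 29313080, plus strand), which gp130 also binds, was at 7.21 and 5.74 FPKM in control against 8.77 and 5.73 FPKM in *Rax* iCKO. Mice 3911 and 3914 thus differed in *Jak2* by -0.0026 on the log2(FPKM + 1) scale, while mouse 7983 was 0.25 above mouse 7984. *Tyk2* (chromosome 9, 21104068 to 21131243, minus strand), known also for interferon signaling, was at 6.50 and 2.99 FPKM in control against 5.96 and 5.15 FPKM in *Rax* iCKO. Control mouse 3911 stood low, and the log2 fold change of *Tyk2* was 0.26 (standard error 0.36), 0.71 without control mouse 7984 and -0.20 without control mouse 3911. The sign also turned for *Jak1* without control mouse 3911 (-0.022) or *Rax* iCKO mouse 7983 (-0.0012), and for *Jak2* without control mouse 3911 (-0.02) or *Rax* iCKO mouse 7983 (-0.14).

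*Stat3* (chromosome 11, 100885098 to 100939540, minus strand) was at 30.5 and 25.8 FPKM in control against 32.2 and 32.5 FPKM in *Rax* iCKO. Both *Rax* iCKO libraries were above both controls, and the ratio of means was 1.15. Control averaged 28.1 ± 3.33 (SD, n = 2) and *Rax* iCKO 32.4 ± 0.182 FPKM (SD, n = 2). The log2 fold change was 0.20 (standard error 0.21, adjusted p = 0.9999 in limma), with a 95% interval from -0.30 to 0.70, and leaving out each mouse in turn gave 0.08 to 0.32. The ratio of *Stat3* to *Jak1* was 0.865 and 0.857 in control against 0.870 and 0.998 in *Rax* iCKO. FPKM measures the RNA of *Stat3*, not its phosphorylation, on which its activity depends.

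*Socs3*, whose protein binds gp130 and the kinases and blocks them, was at 29.1 and 28.6 FPKM in control against 9.27 and 6.80 FPKM in *Rax* iCKO. It was thus close to *Stat3* in control, with a ratio of *Socs3* to *Stat3* of 0.953 and 1.11, and below it in *Rax* iCKO, with ratios of 0.288 and 0.209. Set against the receptor it acts on, the ratio of *Socs3* to *Il6st* was 0.981 and 2.08 in control against 0.414 and 0.577 in *Rax* iCKO mice 7983 and 3914. Neither ratio overlapped between the genotypes. *Socs3* is the gene that the study singled out in these libraries, so this difference is not independent evidence. The log2 fold change of -1.74 had an adjusted p in limma of 0.484, and of 4.09e-04 with a replicate block by runs of mouse numbers.

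Of the ligands, *Lif* (chromosome 11, 4257557 to 4272514, plus strand) was at 0.432 and 0.198 FPKM in control against 0.815 and 0.281 FPKM in *Rax* iCKO. From the length of its longest transcript these values correspond to about 21, 7, 29 and 10 reads in that order, so that counting error is large. *Lif* was highest in *Rax* iCKO mouse 7983 and higher in *Rax* iCKO than in control within each run of mouse numbers, but the groups overlapped (exact permutation test, two-sided, p = 0.667). It was below the filter of the test, and without the filter it was not called either.

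*Cntf* (chromosome 19, 12763660 to 12765632, minus strand) showed the largest difference of the 9 genes tested. Its FPKM was 18.9 and 14.3 in control against 8.10 and 13.1 in *Rax* iCKO. Both *Rax* iCKO libraries were below both controls, but *Rax* iCKO mouse 3914 lay just under control mouse 3911. Control averaged 16.6 ± 3.29 (SD, n = 2) and *Rax* iCKO 10.6 ± 3.54 FPKM (SD, n = 2). The log2 fold change was -0.62 (standard error 0.30), its 95% interval ran from -1.36 to 0.11, and limma gave a p of 0.0828 unadjusted and 0.9999 adjusted. Almost all of it came from 1 run of mouse numbers: on the log2(FPKM + 1) scale mouse 7983 minus mouse 7984 was -1.13 and mouse 3914 minus mouse 3911 was -0.12. Without *Rax* iCKO mouse 7983 the log2 fold change was -0.31, and without *Rax* iCKO mouse 3914 it was -0.94.

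The exons of *Cntf* are also part of a readthrough transcript that starts at *Zfp91*, listed among the symbols as Zfp91Cntf. Reads in these exons can belong to either entry, and how they were divided is not given in the sources used here. Zfp91Cntf was at 1.84 and 2.93 FPKM in control against 3.64 and 0.380 FPKM in *Rax* iCKO. It was thus highest in the library in which *Cntf* was lowest. With both entries summed, an alternative chosen after the values were seen, the log2 fold change was -0.55. The Müller glia markers, by their summed FPKM, were also lower in *Rax* iCKO, with no overlap, and 5 of 15 did so one by one (14.1% of all tested genes). The astrocyte sum, mostly *Aldh1l1*, and the rod sum were lower too, without overlap. Both *Rax* iCKO libraries were below both controls for 9 of 12 rod markers and 12 of 18 immediate early genes (14.1% of all tested genes). In either list 0 genes were higher in both. The part of these genes in the lower *Cntf* was not tested.

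Plotted by genotype and by mouse number, most of the genes differed more between mice of different number than between genotypes. For 6 of the 9 tested genes (*Il6st*, *Lifr*, *Osmr*, *Jak1*, *Jak2* and *Tyk2*) both mice numbered 7983 and 7984 were above both mice numbered 3911 and 3914, as were 26.8% of all tested genes, and for 0 were they below. The share of all tested genes in the opposite order was not computed. Nor was the share that differed more by mouse number than by genotype, so neither count is read as particular to these genes. *Lif*, which was not tested, was ordered in the same way. The median of this difference in log2(FPKM + 1) was 0.41 over the 9 genes and -0.01 over all tested genes. It was largest for *Il6st*, at 1.05 in control and 0.87 in *Rax* iCKO. The numbers are those in the sample titles, and no label says what the runs share. Markers moved with them too: the median difference between the runs was 0.37 for Müller glia markers, -0.25 for bipolar cell markers, and 0.38 for 18 immediate early genes, which cell dissociation can induce. It was 0.85 for 9 microglia markers, whose sums were 51.6 and 56.4 FPKM in control against 87.3 and 13.6 FPKM in *Rax* iCKO, so that in control the sum was not higher in mouse 7984. It was also 0.85 for the 3 tested of 8 endothelial and pericyte markers. Those 3 were *Kdr*, *Flt1* and *Pdgfrb*, whereas *Pecam1*, *Cdh5*, *Tek* and *Cldn5*, which define endothelium, were between 0 and 1.77 FPKM. The endothelial and pericyte sum was 515.8 and 254.5 FPKM in control against 429.3 and 269.5 FPKM in *Rax* iCKO. Their part in the levels of the 10 genes was not tested.

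**Figure D3:**
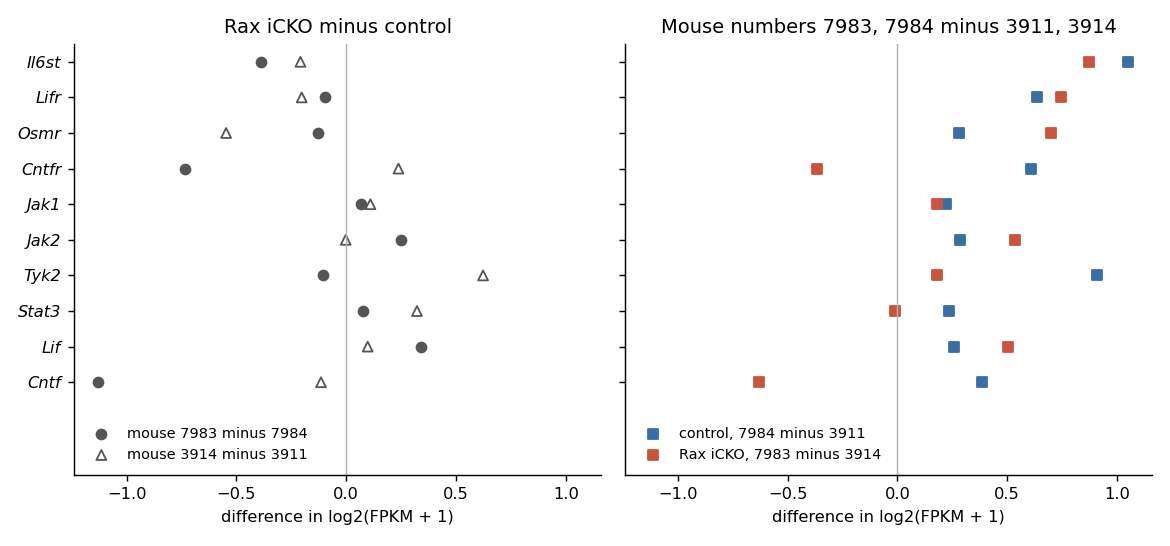
Differences in log2(FPKM + 1) for each of the 10 genes, left between Rax iCKO and control within each run of mouse numbers, right between the 2 runs within control (blue) and within Rax iCKO (red). On the left the points lie on both sides of 0, and on the right they lie above 0 except for Cntfr, Cntf and Stat3 in Rax iCKO.

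The genes whose levels moved most like those of *Il6st* over the 4 libraries were found by the Euclidean distance between centred log2(FPKM + 1), with 9174 genes above a mean of 5 FPKM compared. Among the nearest were *Otud1* (0.0497) and *Plxnc1* (0.111). The nearest for *Stat3* were *Ccnt2* (0.0163), *Ankhd1* (0.0254) and *Eif4b* (0.0256). Many genes come close over only 4 libraries, and the distances are given as a description. Of the other members above that mean, *Osmr* was the nearest to *Il6st* at 0.560, and *Jak1* was the nearest to *Stat3* at 0.175.

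The remaining genes of the pathway were taken from lists by role, and 0 genes of any of these lists had an adjusted p under 0.05 in limma. Among the 9 other ligands, *Il6*, *Ctf2* and *Il27* were listed at 0 in all 4 libraries. Over the 3 that could be tested the median log2 fold change was -0.16. Of the 4 other receptors of the family in the files, *Il11ra1*, the receptor for interleukin-11, was the only one to reach a mean FPKM of 1, at 18.6 and 12.9 FPKM in control against 14.8 and 16.2 FPKM in *Rax* iCKO. *Il6ra*, the receptor for interleukin-6, was between 0 and 0.102 FPKM, and *Il31ra* was between 0 and 0.248 FPKM. Over 7 tested receptors of other cytokines that use the same kinases the median log2 fold change was -0.23, with 2 genes lower in both *Rax* iCKO libraries (14.1% of all tested genes). The most abundant, *Ifngr1* and *Ifnar2*, receptors for interferons, had log2 fold changes of -0.15 and -0.14.

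Among 5 other JAK and STAT genes tested, the median log2 fold change was 0.23, and 3 had both *Rax* iCKO libraries above both controls, as did 15.4% of all tested genes. *Stat5b*, which acts below growth hormone, was at 19.2 and 17.2 FPKM in control against 21.4 and 21.5 FPKM in *Rax* iCKO. Its log2 fold change of 0.23 (standard error 0.21, adjusted p = 0.9999 in limma) was close to that of *Stat3*.

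Over 17 tested brakes on the pathway the median log2 fold change was 0.08, with 5 genes higher and 2 lower in both *Rax* iCKO libraries, beside the 15.4% and 14.1% of all tested genes. The lower pair was *Socs3* and *Socs1*, another inhibitor of the kinases, at 1.93 and 1.69 FPKM in control against 1.04 and 0.211 FPKM in *Rax* iCKO (log2 fold change -0.84). *Ptprt*, a receptor phosphatase that can act on STAT3, was at 4.23 and 3.02 FPKM in control against 6.25 and 7.92 FPKM in *Rax* iCKO (log2 fold change 0.81). Over 14 adaptors of the MAP kinase and PI3 kinase arms, the other outputs of gp130, the median was 0.06, and 1 gene, *Map2k1*, had both *Rax* iCKO libraries above both controls.

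Of 28 genes known to respond to STAT3, 18 were tested. Their median log2 fold change was -0.25, and 8 of the 18 had both *Rax* iCKO libraries below both controls (14.1% of all tested genes) while 2 had both above (15.4%). Among those 8, the largest differences besides *Socs3* were those of *Cebpd* and *Cebpb*, transcription factors of the acute-phase response, and *Ccnd1*, cyclin D1. *Cebpd* was at 23.2 and 30.6 FPKM in control against 11.0 and 9.80 FPKM in *Rax* iCKO (log2 fold change -1.28). *Cebpb* had a log2 fold change of -0.88 and *Ccnd1* of -0.86, and neither was called. *Cebpd* was not called either, except with the replicate block (adjusted p = 0.00844 in limma). The study singled out *Socs3* and *Cebpd* on these libraries, so the count of the list is not independent evidence of its direction. *Gfap*, a STAT3 target and a marker of reactive glia, overlapped between the groups, at 4.80 and 8.94 FPKM in control against 4.38 and 7.14 FPKM in *Rax* iCKO. The immediate early genes moved in the same direction, with a median log2 fold change of -0.49 and 12 of 18 lower in both *Rax* iCKO libraries, and *Fos* and *Junb* stand on both lists. The rod markers were lower too, 9 of 12 in both *Rax* iCKO libraries, with a median of -0.58, again beside the 14.1% of all tested genes. The astrocyte and Müller glia sums given above were lower as well. The part of these groups in the lower STAT3-responsive genes was not tested.

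**Figure D4:**
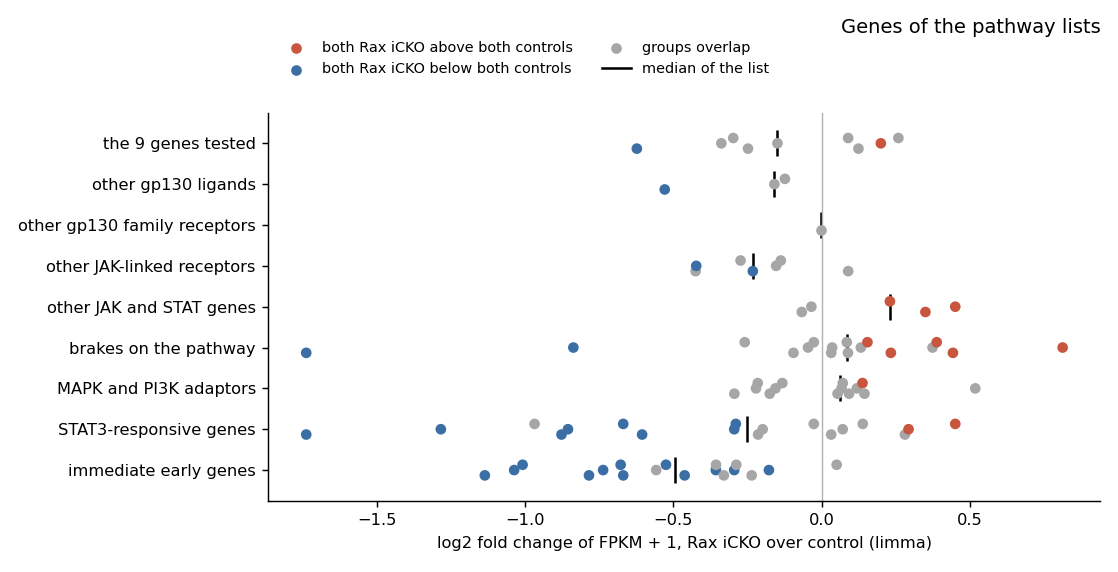
Log2 fold change of FPKM + 1, Rax iCKO over control, of the tested genes in each list, 1 point per gene, red or blue where both Rax iCKO libraries lie above or below both controls and grey where the groups overlap, with a black line at the median of each list. The 9 genes described here lie between -0.62 and 0.26, and the points farthest to the left are Socs3 and Cebpd.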

How the data were processed

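RNA-seq libraries of mTFP-positive cells from 2 control and 2 *Rax* iCKO mice were analysed, grouped by the genotype in the sample labels. The authors aligned the reads, single-end and 101 bases long, with TopHat, Bowtie2 and SAMtools to the mm10 genome, and the deposited values are FPKM for each gene symbol in each library, from Cufflinks by the study's methods and from Cuffdiff by the submitters' processing notes, which can scale libraries differently. The annotation and the use of strand are not given in the sources used here. FPKM were used as deposited. The genotypes were set against each other with the limma package (3.58.1, R 4.3.3) and its variance trend, on log2(FPKM + 1). The 12363 genes whose mean FPKM reached 1 entered the fit, and p-values were adjusted over all of them by Benjamini-Hochberg. Fold changes on this scale understate those of low genes. Single values were compared by exact permutation in scipy 1.17.1. Depth was estimated from the whole-read steps of low values, taken as whole within 0.02 reads: of 2310 genes under 0.5 FPKM, 89.5% were whole multiples of at most 20 reads, and the length of 474 single-transcript genes of GENCODE M21 gave the mapped reads. No count test was run, since FPKM are not counts. The fit was tested on simulated data. Positions are those of GENCODE M21 (GRCm38, the same assembly as mm10).

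The study's own rule, a 2-fold ratio with an unadjusted per-gene test, was kept as an alternative, because 2 mice a group give such a test little hold on the spread. The other alternatives changed the pseudocount (0.1), the filter (none, or a mean of 5 FPKM), the scaling (quantiles, or equal medians) and the variance (no trend), added the run of mouse numbers as a replicate block, or left out each mouse. Genes named from the lists are those with both *Rax* iCKO libraries beyond both controls and a log2 fold change beyond 0.5, at most 4 a list, or else the 2 most abundant. Some genes that this rule picks are not reported here. *Gfap*, *Xist*, *Pcp2*, *Pax2*, *S100b*, *Pecam1*, *Cdh5*, *Tek*, *Cldn5*, *Pdgfrb*, *Fos*, *Junb*, *Il6ra*, *Zfp91* and Zfp91Cntf, and the genes listed at 0, were named after their values were seen. The genes and lists were chosen with earlier results of these data known.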

Additional observations from a re-analysis of the deposited data

How the results depend on the processing

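Over the 9 genes tested and the 7 alternatives that kept all 4 libraries, each log2 fold change kept its direction and stayed above an adjusted p of 0.05, in 63 of 63 values where a gene was tested, the summed *Cntf* included. The filter, the variance trend and the replicate block cannot change a log2 fold change, only its p. The direction could therefore turn only with the pseudocount, the scaling or the summed *Cntf*. With 1 mouse left out 11 of 36 values changed sign, and 0 genes were called. The range was -0.82 to 0.23 for *Il6st*, -0.52 to 0.22 for *Lifr*, -0.69 to 0.012 for *Osmr*, -0.55 to 0.055 for *Cntfr*, -0.022 to 0.20 for *Jak1*, -0.14 to 0.39 for *Jak2*, -0.20 to 0.71 for *Tyk2*, 0.08 to 0.32 for *Stat3* and -0.94 to -0.31 for *Cntf*. The lone library of a group was then assumed to vary like the other group. The runs of mouse numbers were then also unbalanced between the genotypes, so these values and changes of sign hold part of the difference between the runs. The number of the 9 genes whose groups did not overlap was 2 with all libraries (3 after quantile normalization) and 4 to 7 with 1 left out, where 60.3% to 70.3% of all tested genes also did not overlap, and the number beyond 2-fold was 0 to 1, the 1 being *Cntf* without *Rax* iCKO mouse 3914. Over all genes limma called 3, against 0 without the filter (624 at an unadjusted p under 0.05), 0 at a mean FPKM of at least 5 (279 at an unadjusted p under 0.05), 6 with equal medians and 17 to 20 without 1 mouse, and the rule of the study, applied here to the 12363 genes of the fit, picked 41.

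With a replicate block that pairs mice by the run of their numbers, limma called 71 genes, among them *Socs3* (adjusted p = 4.09e-04), *Cebpd* (0.00844) and *Rax* (0.0223), and 0 of the 9, with *Cntf* at an adjusted p of 0.201, the smallest of any member under any alternative, and 0.0165 before adjustment. Without the block, the adjusted p of *Rax* in limma was 0.9999. Deviations from the group means in mice 7983 and 7984 correlated at 0.503 across genes, but with 2 pairs, and no label that gives the runs a meaning, the pairing is a hint from the data. Depth limits *Lif* most.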
